A study of Mus musculus with 4 samples.

Results

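The proteasome genes of mouse cortical neurospheres were examined in 4 RNA libraries, 2 from wild-type (WT) and 2 from LncBAR-KO (KO) cells. Members were the protein-coding genes on chromosomes 1 to 19 and X of the deposited table whose symbol starts with Psma to Psmg and a number, 50 of 55599 entries. The set held 14 ring subunits of the 20S core, 3 immunoproteasome subunits, 2 tissue-specific core subunits, 17 subunits of the 19S regulatory particle, 7 assembly factors (4 of the core and 3 of the 19S particle), 5 activator genes, 1 inhibitor and Psmc3ip. The last matches by name only and encodes a partner protein of meiotic recombination factors. All cells were cortical neurospheres, free-floating balls of cultured neural progenitors, from C57BL/6 embryos of day 12.5, collected at the passage numbered 3. The WT libraries carry no stated alteration, and the KO libraries are labelled as lacking LncBAR, a long noncoding RNA, by a route the labels do not describe. Nothing in the labels states that replicate libraries are from different embryos or different cultures, and p-values here cover only library-to-library spread, possibly of technical origin. These are bulk libraries, in which fewer cells of a type and less RNA per cell cannot be told apart. Where 4 values of a gene are listed, WT replicates 1 and 2 come first and KO replicates 1 and 2 follow.

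The proteasome degrades proteins that carry ubiquitin chains. Its 20S core is a barrel of alpha rings, which gate the entrance, and beta rings, of which Psmb5, Psmb6 and Psmb7 hold the protease sites. The 19S particle caps the barrel: its base unfolds substrates with the Psmc ATPases and its lid removes ubiquitin. Interferon replaces the catalytic subunits with Psmb8, Psmb9 and Psmb10 to form the immunoproteasome, and induces the cap PA28, a ring of the Psme1 and Psme2 proteins that opens the barrel without ATP. Dividing progenitors rely on this machinery to clear cyclins and cell-cycle inhibitors.

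Totals were 17244057 to 18280445 counts per library, and 12997 genes passed a mean FPKM (fragments scaled to gene length and library size) of at least 1 over the 4 libraries. The neural progenitor markers Sox2, Nes, Fabp7, Pax6, Vim and Hes5 were all above this filter. Of the neuron markers Tubb3 passed the filter too, with 179 to 281 counts, Dcx had 163 to 259 counts and Stmn2 1 to 6. The other marker lists lay below the filter gene by gene. The 6 markers of microglia and blood summed to 1 to 11 counts (Tyrobp and C1qa at 0), the 4 of endothelium to 78 to 87 counts (Kdr 66 to 76, Cdh5 at 0) and the 4 of mesenchyme to 61 to 107 counts, and all 4 globin genes were at 0. Both WT libraries had 0 counts of the Y genes Ddx3y, Eif2s3y, Kdm5d and Uty and at least 31563 counts of Xist, and both KO libraries had the reverse pattern, so genotype and the sex-chromosome difference cannot be told apart in any value below. The level of LncBAR was not analysed here.

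Of the 50 members, 45 passed the filter and were tested, and none of them passed the test for a difference between genotypes. In edgeR's quasi-likelihood test the smallest adjusted p among them was 0.72, with 0 members called where 0.0692% of all 12997 tested genes were called. That share is 9 genes, of which 5 were the sex-chromosome genes Xist, Ddx3y, Eif2s3y, Kdm5d and Uty. At an unadjusted p under 0.05 there were 4 members (Psme2, Psmd10, Psmc6 and Psmb1), and 5.92% of all genes. DESeq2 also called 0 and had 4 at an unadjusted p under 0.05, where 2.82% of all genes had one. In the authors' deposited table, too, 0 members had an adjusted p under 0.05, with 0.29 as the smallest.

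The core genes were expressed strongly and within a narrow band. Over the 14 alpha and beta ring genes the mean FPKM ran from 28.7 for Psma3 to 114.5 for Psma6, a 3.99-fold range around a median of 45.5. Psma6, an alpha ring subunit, stood at 107.5, 113.8, 114.0 and 122.8 FPKM. Psma3, another alpha subunit, stood at 25.6, 28.6, 27.6 and 33.0 FPKM. For both genes the highest library was KO replicate 2 and the lowest WT replicate 1. In the beta ring Psmb5, the chymotrypsin-like protease subunit, was highest with 79.7, 90.6, 90.8 and 97.7 FPKM, and Psmb1 was lowest by mean with 35.1. The 17 genes of the 19S base and lid ran from 14.1 FPKM for the lid subunit Psmd11 to 95.2 for the ATPase Psmc1, a 6.76-fold range around a median of 40.4.

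Part of this spread between genes went with the length used. The table divides counts by the union of all annotated exons of a gene, which for all 50 members equals that of GENCODE M21. With the longest principal transcript instead, a setting added after the data were seen, the range of the 19S genes narrowed to 3.66-fold (coefficient of variation 28.8% against 47.3%) while that of the core was 4.24-fold (38.2% against 46.1%). The highest core gene was then Psmb6 with 167 FPKM, and Psma3 was lowest on both scales. The order within the beta ring changed too. Psmb5, its highest gene by exon union, was then its lowest with 89.7 FPKM, below Psmb1 with 91.7 FPKM. Psma3 has a processed pseudogene, Gm13835, that shares 15.4% of its 50-base words. Gm13835 carried 805, 860, 846 and 1142 counts, or 44.4% to 49.4% of the Psma3 count in each library. For Psma5 the copies Gm8394 and Gm12989 together came to 16.1% to 19.1% of its count, and for the other members with a pseudogene sharing at least 10% of their 50-base words they came to at most 8.02%. Whether reads were divided between these genes and their copies was not tested.

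**Figure D1:**
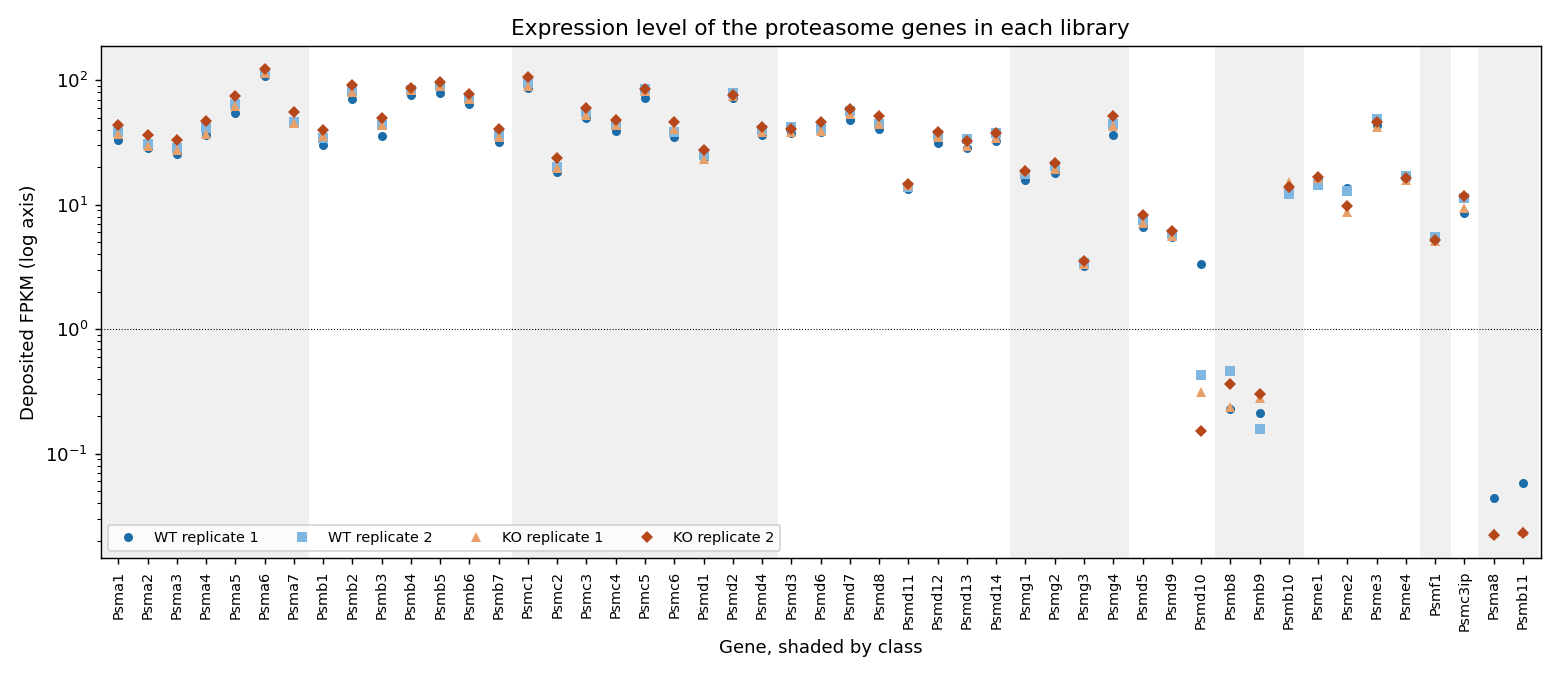
Deposited FPKM on a log axis for the 49 members with at least 1 count, 1 symbol per library, with classes in alternating shades and a dotted line at 1 FPKM; libraries at 0 are not drawn. Core and 19S genes lie between 13.4 and 122.8 FPKM, while Psmb8, Psmb9, Psma8 and Psmb11 lie below 1.

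Most constitutive subunits had the same lowest and the same highest library. WT replicate 1 was lowest and KO replicate 2 highest in 14 of 14 core ring genes and in 11 of 17 genes of the 19S base and lid, together 25 of 31, where 14.6% of all tested genes had that order; this description was chosen after the values were seen. The summed core genes stood at 1497 and 1674 CPM (counts scaled to the TMM-adjusted library size) in WT and at 1640 and 1864 CPM in KO, so WT replicate 2 lay above KO replicate 1 and the groups overlapped. The means were 1586 ± 125 CPM in WT and 1752 ± 159 CPM in KO (SD, n = 2 each). The summed 19S base and lid genes stood at 2168 and 2393 CPM in WT and at 2293 and 2523 CPM in KO, again with overlapping groups. As the median over the 31 genes, the deviation of log2 CPM from the 4-library mean was -0.14, 0.02, -0.02 and 0.14. From lowest to highest the order was WT replicate 1, KO replicate 1, WT replicate 2 and KO replicate 2. The genotypes thus alternated, and the outermost libraries were of opposite genotype. The 6 neural progenitor markers summed to 2530, 2640, 2730 and 2830 FPKM, a sum led by Fabp7 with 1340 to 1614 FPKM, the only one of the 6 with the same lowest and highest library; Sox2, Pax6 and Hes5 were lowest in KO replicate 2. Their part in the order of the proteasome genes was not tested.

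**Figure D2:**
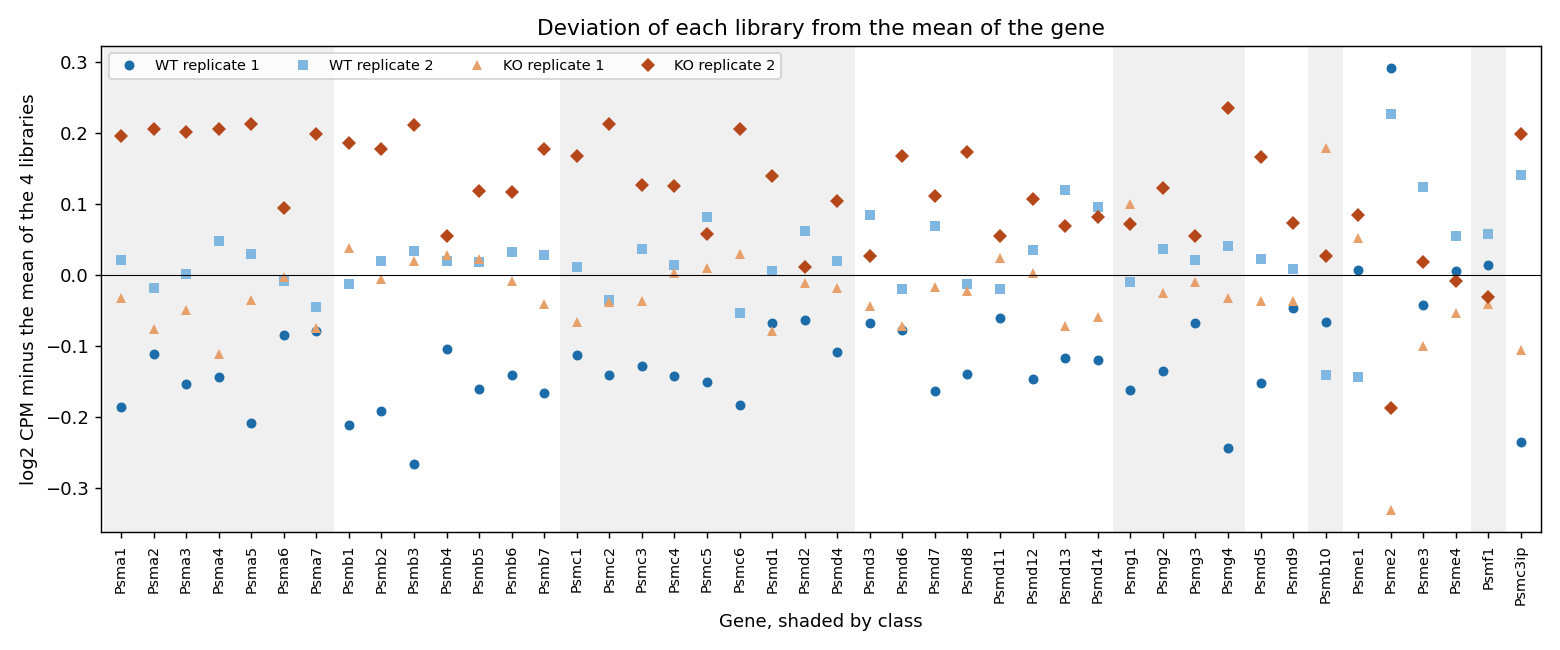
Log2 CPM of each library minus the mean of the 4 libraries, for the 44 tested members other than Psmd10, with classes in alternating shades. KO replicate 2 lies on top and WT replicate 1 at the bottom for all 14 core genes, whereas Psme2 has both WT libraries on top.

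The genotype comparison gave small fold changes for the constitutive genes, most of them positive. The log2 fold change of KO over WT was positive in 14 of 14 core genes, with a median of 0.14, and in 14 of 17 base and lid genes, with a median of 0.09. For the 14 core genes and 11 of the base and lid genes this sign follows from the library order given above. It is no separate result for them. Over all tested genes 51.0% were positive and the median was 0.00. Without KO replicate 2 the medians were 0.02 for the alpha ring, 0.08 for the beta ring, 0.02 for the 19S base and 0.0004 for the lid, and without WT replicate 1 they were 0.06, 0.05, 0.03 and 0.00. The 95% intervals of the 31 genes reached from -0.22 to 0.47 and held 0 for 29 of them, so these libraries leave room for a 1.39-fold rise or a fall to 0.857 of the WT level in single genes. Both KO libraries lay above both WT libraries for 6 of the 31 genes (18.1% of all tested genes did so) and below them for none (18.7%).

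The largest of these values belonged to Psmc6, Psmb3 and Psmb1. Psmc6, an ATPase of the base, had 124, 136, 144 and 163 CPM, with groups that did not overlap and a log2 fold change of 0.24 ± 0.09 (SE; edgeR adjusted p = 0.811). Psmb1, a structural beta subunit, had 139, 159, 165 and 183 CPM, again without overlap, and 0.22 ± 0.09 (edgeR adjusted p = 0.811). Leaving out 1 library gave 0.146 (without KO replicate 2) to 0.3247 for Psmc6 and 0.1269 (without WT replicate 1) to 0.3252 for Psmb1. Psmb3, also structural, had 82.2, 101, 100.2 and 114 CPM, with WT replicate 2 above KO replicate 1. The caspase-like protease subunit Psmb6 had 121, 136, 132 and 144 CPM and the trypsin-like Psmb7 ran from 110.0 to 140 CPM. In each, WT replicate 2 lay above KO replicate 1. Psmd2, the scaffold of the base, had 293.5, 320.1, 304 and 309 CPM, with overlapping groups (log2 fold change 0.00 ± 0.08). The smallest levels of each 19S part belonged to Psmc2, at 18.5, 20.0, 19.9 and 23.8 FPKM, and to Psmd11, at 13.4, 13.9, 14.3 and 14.7 FPKM, and the largest of the lid to Psmd7, at 48.4, 57.1, 53.7 and 59.2 FPKM. Psmc1 stood at 87.3, 95.7, 90.5 and 107.2 FPKM. Of these only Psmd11 had both KO libraries above both WT libraries. The rank of Psmd7 holds for the exon-union length only. With the longest principal transcript Psmd3 was highest of the lid with 91.7 FPKM, and Psmd7 had 78.1 FPKM.

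**Figure D3:**
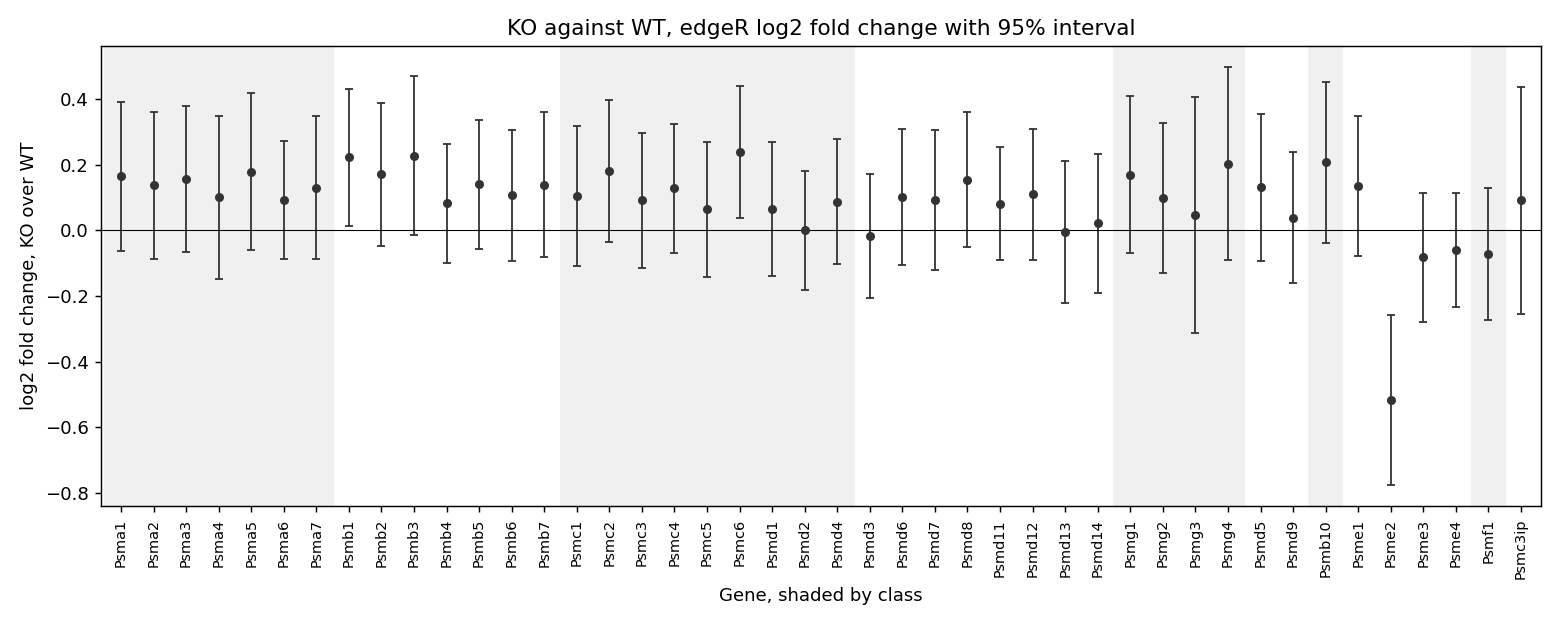
Log2 fold change of KO over WT with its 95% interval from edgeR's quasi-likelihood fit, for the 44 tested members other than Psmd10, by class. The intervals hold 0 for 41 of the 44, the exceptions being Psme2, Psmc6 and Psmb1, and no adjusted p was below 0.72.

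None of the letter patterns searched was present in the promoters of all core and 19S genes. Only patterns chosen beforehand were searched, and other shared patterns were not looked for. RefSeq promoters of build GRCm38.p6, from 250 bases before to 50 after the start, matched 42 of the 50 members, 25 of them constitutive. Motifs were searched on both strands, and a match is a description of the letters only. Member shares are per gene, with a match in any of its promoters, and 3 members have more than 1. The shares of all promoters are per promoter, so the units differ. The ETS core (CCGGAAG) was present in 10 of the 25 constitutive genes, or 40.0%, and in 8.86% of all 32851 promoters. The core of the antioxidant response element (TGACNNNGC), the kind of site bound by Nfe2l1, which raises proteasome genes when proteasomes are inhibited, was in 4 of the 25 (16.0%) and in 12.4% of all promoters. The CCAAT box was in 10 of the 25 (40.0%) and in 37.4% of all. In the promoters printed here no marked match overlapped another. Psmb5 and Psmc6 are shown as a catalytic core subunit with the antioxidant core and as the constitutive gene of smallest p, with matches to the ETS and antioxidant letters in capitals.
Psmb5 promoter, chr14:54617946-54618245, minus strand: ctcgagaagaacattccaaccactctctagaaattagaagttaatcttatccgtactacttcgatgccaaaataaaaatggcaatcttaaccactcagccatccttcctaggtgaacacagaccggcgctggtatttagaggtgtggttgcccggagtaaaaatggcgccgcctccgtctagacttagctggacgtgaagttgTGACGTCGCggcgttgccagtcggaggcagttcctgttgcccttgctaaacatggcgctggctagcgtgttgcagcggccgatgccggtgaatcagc
Psmc6 promoter, chr14:45329574-45329873, plus strand: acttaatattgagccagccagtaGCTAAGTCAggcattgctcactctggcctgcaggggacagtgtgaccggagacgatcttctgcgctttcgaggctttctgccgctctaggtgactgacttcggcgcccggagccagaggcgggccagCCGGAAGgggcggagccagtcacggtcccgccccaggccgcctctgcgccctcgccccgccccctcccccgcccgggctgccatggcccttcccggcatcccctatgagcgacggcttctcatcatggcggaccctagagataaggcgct
In Psmb5 the antioxidant letters lie at -47 to -39 from the start, and in Psmc6 the ETS letters lie at -100 to -94 and the antioxidant letters, on the opposite strand, at -227 to -219.

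Psme2 had the smallest edgeR p of the members, and Psmd10, described further on, the largest fold change and the smallest p in the authors' deposited table. Psme2 (ENSMUSG00000079197, mm10 chr14:55587441-55591113, minus strand) encodes PA28 beta. Its counts were 431 and 399 in WT against 272 and 311 in KO, or 13.5, 13.0, 8.80 and 9.80 FPKM. Both KO libraries lay below both WT libraries, by more than the spread within either genotype. The means were 23.5 ± 0.75 CPM in WT and 16.4 ± 1.15 CPM in KO (SD, n = 2 each), a log2 fold change of -0.52 ± 0.12 with a 95% interval of -0.78 to -0.26. Its unadjusted p was 0.0012 in edgeR's test, and it did not pass over all genes (adjusted p = 0.72). The authors' deposited table gives -0.51 with an adjusted p of 1.0. Over the alternative fits the log2 fold change ranged from -0.59 (without KO replicate 2) to -0.45 (without KO replicate 1), and the adjusted p from 0.105 to 1.0.

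Its partner had a value of the opposite sign. Psme1 (mm10 chr14:55578123-55581529, plus strand), which encodes PA28 alpha and lies near Psme2, had 630, 550, 632 and 669 counts. Its levels were 15.8, 14.3, 16.3 and 16.8 FPKM, with both KO libraries above both WT libraries by little, and its log2 fold change was 0.13 ± 0.10 (edgeR adjusted p = 0.843), with 0.06 without WT replicate 2 and 0.21 without WT replicate 1. Dividing Psme2 by Psme1 FPKM gave 0.857 and 0.908 for the WT libraries but 0.539 and 0.582 for the KO libraries, or means of 0.883 ± 0.0366 against 0.561 ± 0.0305 (SD, n = 2 each). The ratio did not overlap between genotypes, which follows from the opposite order of the libraries in the genes divided. Its difference was not tested. Psme2 shares no exon base with another gene of the table, and Psme1 shares 14 with Emc9 on the opposite strand, which the kit cannot tell apart and which had 49 to 65 counts.

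The log2 fold changes of the other activators were close to 0. Psme3 encodes PA28 gamma, the nuclear cap, and was the highest activator, with 43.5, 49.0, 41.9 and 45.85 FPKM. Its groups overlapped, and the log2 fold change was -0.08 ± 0.09 (edgeR adjusted p = 0.892), or 0.0024 without WT replicate 2. Psme4, which encodes PA200, had 16.3, 17.0, 15.7 and 16.3 FPKM and -0.06 ± 0.08 (edgeR adjusted p = 0.91); in CPM both KO libraries lay below both WT libraries, at 132 and 137 against 138 and 143. The inhibitor Psmf1, whose protein binds the ends of the core, had 5.34, 5.52, 5.15 and 5.23 FPKM and -0.07 ± 0.09 (edgeR adjusted p = 0.909). Both of its KO libraries, too, lay below both WT libraries, by a margin far under that of Psme2.

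**Figure D4:**
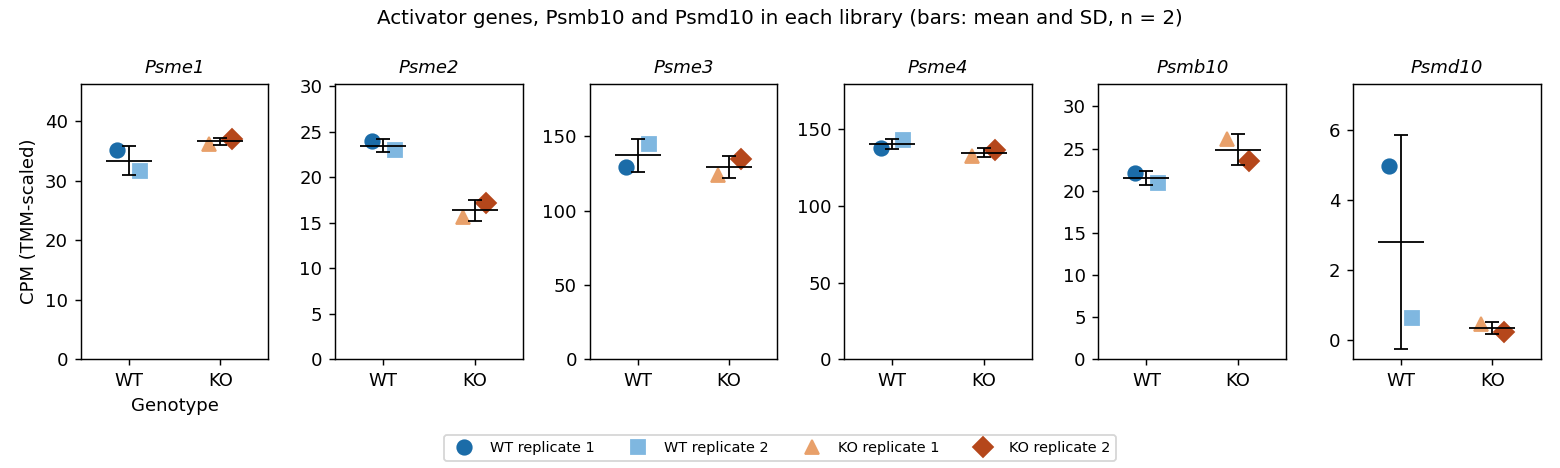
CPM per library for the 4 activator genes with counts, Psmb10 and Psmd10, with a horizontal bar at the mean and an error bar of 1 SD (n = 2 per genotype); each panel has its own axis. The WT and KO libraries of Psme2 are apart at 23.0 to 24.0 and 15.6 to 17.2 CPM, and the Psmd10 panel shows WT replicate 1 alone at 4.96 CPM.

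Psme2 has a near-identical copy, Psme2b (mm10 chr11:48945354-48946190, minus strand), which had 0 counts in all 4 libraries, allowing up to 3 counts in each for counting error alone. Their coding sequences in GENCODE M21 are 717 bases each with 5 substitutions and no gap, an identity of 99.3%. The substitutions, written with the Psme2 base first and positions counted from the first base of the start codon, are C312T, A369G, C489T, C519T and C543T, all 5 at the last base of a codon. The longest identical run is 311 bases, longer than the 150-base reads. Of the 50-base words of all Psme2 transcripts 28.3% also occur in Psme2b, and no source used here says how reads matching both were counted. Bases 424 to 543 of both coding sequences are shown to make the copy visible, with the 3 substitutions in this stretch in capitals.
Psme2: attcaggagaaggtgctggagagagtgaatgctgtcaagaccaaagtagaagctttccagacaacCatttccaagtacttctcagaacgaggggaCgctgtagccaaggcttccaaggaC
Psme2b: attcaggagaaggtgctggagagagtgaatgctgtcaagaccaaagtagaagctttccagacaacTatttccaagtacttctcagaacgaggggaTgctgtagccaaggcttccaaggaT
Summing both genes left the log2 fold change at -0.52 (edgeR adjusted p = 0.72), since Psme2b added no count.

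The promoters of the PA28 pair are shown because the estimated log2 fold changes of these nearby genes had opposite signs. For Psme1 the sign is uncertain, with a 95% interval of -0.08 to 0.35. A link between promoter letters and fold changes was not tested. The interferon regulatory factor letters (GAAA, any 2 bases and GAAA) are in capitals.
Psme1 promoter, chr14:55578244-55578543, plus strand: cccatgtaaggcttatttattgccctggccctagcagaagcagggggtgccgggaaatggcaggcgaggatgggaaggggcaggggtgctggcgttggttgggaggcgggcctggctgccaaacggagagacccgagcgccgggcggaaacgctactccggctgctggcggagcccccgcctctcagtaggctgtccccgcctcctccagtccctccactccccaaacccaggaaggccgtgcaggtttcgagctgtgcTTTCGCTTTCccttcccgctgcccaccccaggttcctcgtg
Psme2 promoter, chr14:55590972-55591271, minus strand: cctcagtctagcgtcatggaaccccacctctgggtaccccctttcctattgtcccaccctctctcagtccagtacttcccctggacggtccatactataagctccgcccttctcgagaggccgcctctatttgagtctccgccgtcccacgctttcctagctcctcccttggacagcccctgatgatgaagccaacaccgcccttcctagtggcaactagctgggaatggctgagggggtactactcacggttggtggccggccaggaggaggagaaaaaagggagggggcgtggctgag
Psme1 holds the interferon letters once, on the opposite strand, at 10 to 19 after the start, and the printed Psme2 window holds none. These letters were in 5 of the 42 members (11.9%, namely Psmb3, Psmd4, Psmd9, Psme1 and Psmg4) and in 3.44% of all promoters. The former share is per gene and the latter per promoter. RefSeq lists another Psme2 start upstream, whose window holds none either.

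Of the immunoproteasome genes only Psmb10 was expressed above the filter. Psmb10, the beta2i protease subunit, had 12.9, 12.3, 15.3 and 13.9 FPKM. Both KO libraries lay above both WT libraries, with 21.5 ± 0.794 CPM in WT and 24.9 ± 1.85 CPM in KO (SD, n = 2 each) and a log2 fold change of 0.21 ± 0.11 (edgeR adjusted p = 0.828). Psmb8, the beta5i subunit, had 14, 27, 14 and 22 counts and 0.229 to 0.458 FPKM, with overlapping groups. Psmb9, the beta1i subunit, had 14, 10, 18 and 20 counts and 0.157 to 0.304 FPKM, with both KO libraries above both WT libraries. It shares 212 exon bases with Tap1 on the opposite strand, which had 236 to 309 counts. Both were below the filter and were not tested. Against the constitutive subunit that each replaces, Psmb8 was at 0.261% to 0.506% of Psmb5, Psmb9 at 0.216% to 0.399% of Psmb6 and Psmb10 at 33.4% to 43.7% of Psmb7, on the FPKM scale. With the longest principal transcript as length these ranges were 0.541% to 1.05%, 0.25% to 0.461% and 14.7% to 19.3%. Psmb10 exceeded Psmb8 by 26.7-fold to 64.6-fold in single libraries, or by 16.7-fold to 40.4-fold with that length. Psmb7 shares 405 exon bases with Nek6 on the opposite strand, which had 1110 to 1292 counts. Psmb8 shares 498 with Gm20496 on the opposite strand, which had 0 counts, and 11.9% of its 50-base words occur in other genes. The 6 markers of microglia and blood cells, which carry immunoproteasomes, summed to 1, 4, 6 and 11 counts, with Tyrobp and C1qa at 0. The testis subunit Psma8 (2, 0, 1 and 1 counts) and the thymus subunit Psmb11 (5, 0, 2 and 2 counts) were close to 0.

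The core assembly factors had log2 fold changes like those of the core genes. Their median level was lower, at 18.9 FPKM against 45.5 FPKM for the core genes. Psmg1 to Psmg4 encode the chaperones that build the alpha ring, and all 4 had positive log2 fold changes of 0.05 to 0.20 with a median of 0.13, none passing the test (edgeR adjusted p from 0.835). Leaving out 1 library moved the median to 0.04 (WT replicate 1, and likewise KO replicate 2) or as far as 0.22 (WT replicate 2). Psmg4 was highest, with 36.7, 44.9, 42.6 and 51.7 FPKM, and Psmg3 lowest, with 3.19, 3.41, 3.34 and 3.52 FPKM. WT replicate 1 was lowest in each of the 4, and KO replicate 2 highest in 3. Of the chaperones of the 19S base, Psmd5 had 6.63, 7.51, 7.19 and 8.35 FPKM and Psmd9 had 5.56, 5.80, 5.61 and 6.10 FPKM, with overlapping groups. Psmc3ip had 8.65, 11.3, 9.48 and 11.8 FPKM, with each KO library close to the WT library of the same number, and shares 385 exon bases with Mlx on the opposite strand.

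Psmd10, the base chaperone also called gankyrin and the only X-linked member (mm10 chrX:140948429-140956728, minus strand), had most of its counts in 1 library. It had 89 counts in WT replicate 1 against 11, 8 and 4 in WT replicate 2 and KO replicates 1 and 2, or 3.35, 0.430, 0.311 and 0.151 FPKM, and passed the filter through WT replicate 1 alone. The WT libraries differed from each other by far more than WT replicate 2 did from KO, and the CPM means were 2.80 ± 3.06 in WT and 0.340 ± 0.168 in KO (SD, n = 2 each). Its log2 fold change was -3.03 ± 0.87 (edgeR adjusted p = 0.811), and -0.89 without WT replicate 1 (adjusted p = 1.0). It passed in edgeR without the filter (adjusted p = 0.0425), with the replicate number as a block (adjusted p = 0.034) and without WT replicate 2 (adjusted p = 2.35e-13); each of these fits includes WT replicate 1. Only 4 of 12997 tested genes were at least 5-fold higher in WT replicate 1 than in any other library, namely Psmd10, Gapdh, Gm22352 and Mir344f. No 50-base word of Psmd10 occurs in a transcript of another gene of GENCODE M21, so none of the annotated transcripts is an exact copy of such a stretch.

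Other genes of the ubiquitin and proteasome system were counted from lists of partners, ubiquitin genes and antigen presentation genes. Of 19 matched partner genes, 0 passed the test and 10 had a positive log2 fold change, with a median of 0.00. Pomp, the chaperone that completes the core, had 0.20 ± 0.10, and Ddi2, the protease that activates Nfe2l1, had -0.17 ± 0.08 (edgeR adjusted p = 0.811 for each). Nfe2l1 itself had 0.01 ± 0.08. The 26S subunits encoded outside the Psm names, Adrm1 and Sem1, had 0.04 ± 0.09 and 0.11 ± 0.10. Of 6 ubiquitin and ubiquitin-activating genes 0 passed the test and 4 were positive. Rps27a, a fusion of ubiquitin and a ribosomal protein, had 237.9, 384.8, 405.7 and 462.3 CPM, with WT replicate 1 far below the other libraries, and 0.48 ± 0.17 (edgeR adjusted p = 0.811). Of 12 tested genes of antigen presentation and interferon signalling 0 passed the test and 7 were positive. Tapbp, the peptide-loading factor tapasin, had -0.26 ± 0.11 and Tap2, a subunit of the peptide transporter, -0.36 ± 0.20 (edgeR adjusted p = 0.811 and 0.83), both with KO libraries below WT libraries. B2m, the light chain of MHC class I, had 0.17 ± 0.09 and H2-K1, a heavy chain, 0.19 ± 0.10, both with KO above WT (edgeR adjusted p = 0.813 for each). Irf1, an inducer of immunoproteasome genes, had 229 to 241 counts in every library.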

How the data were processed

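Polyadenylated RNA of 2 WT and 2 KO libraries was sequenced in 150-base read pairs with a kit that keeps no strand, per the labels' protocols. The submitters' processing notes name cutadapt 1.16, TopHat2 2.1.1, Cufflinks 2.2.1 and mm10; for the counting program, and its handling of reads matching several genes: not given in the sources used here. The authors deposited whole-number counts per gene, FPKM values per gene (by exon-union length, as their values show) and their own comparison, with a mean signal (normalized count) per genotype, a log2 fold change and p-values, all per the file headers.

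The counts of the whole table were tested with edgeR 4.0.16 in R 4.3.3 (quasi-likelihood, TMM, genotype as the only factor, mean FPKM of at least 1, two-sided p adjusted by Benjamini-Hochberg over 12997 genes, threshold 0.05). SE was taken as the absolute log2 fold change over the root of F. Alternatives were other scalings and filters, DESeq2 1.42.0, limma 3.58.1 on log2(FPKM + 1) and log2(FPKM + 0.1), a replicate block, each library left out, and pseudogene copies summed and principal transcript length (both added after the data were seen). The steps were tested on simulated data. Limits from a count of 0 cover counting error only. Values in every library are given for activators, immunoproteasome genes, members with an unadjusted p under 0.05 and the highest and lowest of each class; Psma8, Psmb11, Psmb3, Psmb6, Psmb7, Psmd2, Psmd9 and Psmc3ip were added after their values were seen. In each list up to 4 genes of smallest p were to be named; Adrm1, Sem1, Nfe2l1 and Irf1 were chosen after their values were seen. Members and lists were chosen with earlier results of these data known. Paaf1 was not analysed here.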

Additional observations from a re-analysis of the deposited data

How the results depend on the processing

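Psme2 had a negative log2 fold change and no call in each of its 16 alternative fits, 2 of which, the sums with Psme2b and with pseudogene copies, add nothing to its counts. The count of members called was 0 in each alternative except 3: it was 1, Psmd10, without the expression filter, with the replicate block and without WT replicate 2, so 0 to 1 over the fits that left out 1 library. The number of all genes called, 9 in the fit reported, was 31 without the filter, 4 in limma on log2(FPKM + 1), 3 on log2(FPKM + 0.1), 24 with the replicate block and 15 to 86 when 1 library was left out; a genotype reduced to 1 library then borrows its spread from the remaining pair. Libraries with the same number showed a correlation of deviations of 0.0762 (WT replicate 1 with KO replicate 1), which does not establish a pairing, and with the replicate block 14 members had an unadjusted p under 0.05 (12.3% of all genes did), against 4 (5.92%) in the fit reported. That count was 18 (12.1%) without KO replicate 1, 2 (3.0%) without KO replicate 2, 1 (5.16%) without WT replicate 1 and 9 (5.8%) without WT replicate 2. When single libraries were left out, the edgeR log2 fold change turned direction for 4 named members: Psmc1 ranged from -0.017 (without KO replicate 2) to 0.2183, Psmc3ip from -0.0857 (without WT replicate 1; -0.0703 without KO replicate 2) to 0.2904, Psmd7 from -0.0205 (without WT replicate 1) to 0.2123, and Psme3 from -0.1637 to 0.0024 (without WT replicate 2). The median over all tested members, 0.10, was 0.02 to 0.18 when single libraries were left out and 0.09 to 0.11 in the other alternatives. Of the 45 tested members 31 had WT replicate 1 lowest and KO replicate 2 highest, an order that fixes a positive sign. With these included, 37 had a positive log2 fold change in the fit reported. That number was 28 without KO replicate 2 and 33 without WT replicate 1. It was 40 without KO replicate 1 and 41 without WT replicate 2. The cause of these shifts was not tested. With 10 to 27 counts, Psmb8 and Psmb9 are limited by depth.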
